A study of Brassica napus with 12 samples.

Results

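Apical meristems of the rapeseed line SX3, a natural mutant, were set against those of the line ZS11, the wild type, over all genes of the deposited table. Rapeseed (*Brassica napus*) is an allotetraploid that carries an A and a C subgenome, so most genes exist as near-identical copies called homoeologs. The comparison used 6 of the 12 libraries of the series: SX3 replicates 1 to 3 (genotype label mutant) and ZS11 replicates 1 to 3 (genotype label WT). Both lines were grown without treatment at an experimental station and sampled as whole apical meristems when floral primordia begin to form on the inflorescence. Plant age, and whether a library came from 1 plant or several, are not given. The p-values therefore speak of variation among the 6 libraries alone, part of which may be technical. SX3 and ZS11 are separate lines, and effects of the mutation and of the rest of their genomes cannot be told apart here. The hour of sampling is not given either, so a difference in hour cannot be told apart from a difference between lines for any gene.

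Total counts were 13645330, 13964865 and 17033511 in the SX3 libraries, against 17778731, 15981339 and 14608125 in the ZS11 libraries. Levels are given in CPM, counts scaled to the size of the library and between libraries by TMM, and changes as log2 of SX3 over ZS11. A feature was called at a Benjamini-Hochberg adjusted p under 0.05 in edgeR's quasi-likelihood test. The libraries of a line lay very close together, with a common coefficient of variation beyond counting noise of 2.70%, so that small differences were called. Of 50035 genes tested, 34681 were called (69.3%), 16733 higher in SX3 (33.4%) and 17948 lower (35.9%). With upper-quartile scaling, which moved the median of all genes from -0.01 to 0.05, the split was 18425 higher and 16576 lower. At least 2-fold differences numbered 13146 (26.3%), 5231 of them higher in SX3 and 7915 lower. The share of tested genes with a change of 2-fold or more, called or not, was 30.3% on the A subgenome and 22.5% on the C subgenome, and by chromosome it ran from 17.3% on C08 to 40.1% on C02. Without the first 9 Mb of C02 its share was 21.5%, and A02 had the highest, 38.2%.

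A meristem is a pool of dividing cells that gives rise to leaves and, later, flowers. Dividing cells spend much of their RNA on ribosomes and on the histones that package newly copied DNA, whereas maturing green cells build photosystems, vacuoles and strengthened walls. Genes are named below from the best protein match in the deposited table, which identifies a family more surely than an exact counterpart. The sources used here do not give how reads matching several copies were counted, so the values of near-identical copies are uncertain. Counts were therefore also summed over all genes with the same best match, called a protein name here. The gene IDs end in ZS. If reads were mapped to a genome of ZS11, poorer mapping of divergent SX3 reads cannot be told apart from lower expression.

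Most genes for cytosolic ribosomal proteins rose in SX3. Genes for cytosolic ribosomal proteins took 9.20%, 9.12% and 9.08% of all counts in the SX3 libraries, against 5.39%, 5.41% and 5.40% in the ZS11 libraries. The groups did not overlap, nor did the libraries of the 2 lines for any gene or protein name given below with a value per library. For the protein names with the largest changes this was a condition of being named. Family members were picked as called genes with the largest folds, so for them it carries no added support. Outside the 3 chromosome stretches described further on, 242 of 307 tested genes of the small subunit were called higher in SX3 and 39 lower (median log2 change 0.76). For the large subunit 364 of 431 were higher and 48 lower (median 0.82). Over all 49118 genes tested outside the stretches, 33.7% were higher and 35.1% lower. By protein name, 50 of 58 small-subunit proteins and 77 of 83 large-subunit proteins were higher, with medians of 0.72 and 0.80, against 37.8% of all 12943 protein names higher and 38.5% lower. Summed over genes, the small subunit reached 34055, 33730.4 and 33444 CPM in SX3, against 20489, 20600.5 and 20481 CPM in ZS11.

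**Figure D1:**
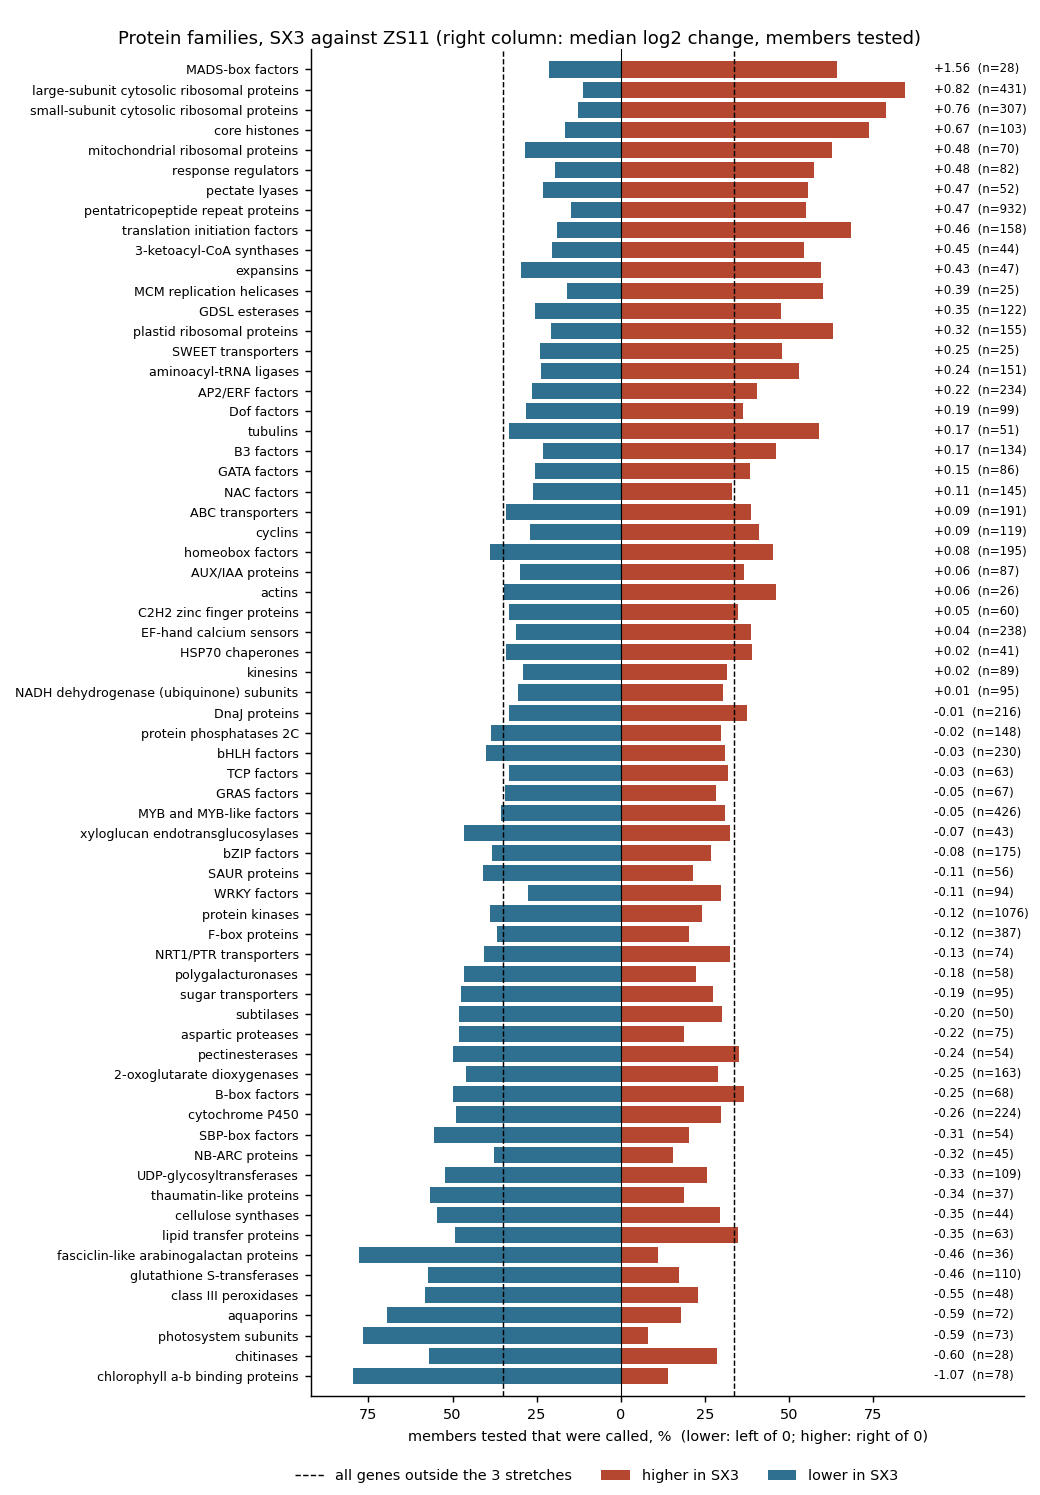
Share of tested members called higher in SX3 (right of 0) and lower in SX3 (left of 0), in percent, for each protein family with 20 or more members tested outside the 3 stretches, sorted by median log2 change; the right column gives that median and the number tested. Dashed lines mark the shares over all genes outside the stretches, 33.7% higher and 35.1% lower; ribosomal proteins and core histones exceed the right line by far and light-harvesting proteins, photosystem subunits and aquaporins the left one.

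Single ribosomal protein genes differed by far more than their sums. RPS2A on C03 (BnaC03G0241200ZS), for protein S2 of the small subunit, held 341, 346 and 338 CPM in SX3, against 0.0570, 0 and 0 CPM in ZS11, where 1 read was counted over the 3 libraries. The 12 genes for protein S2 together summed to 2131 ± 19.4 CPM in SX3 and 1051 ± 7.62 CPM in ZS11 (SD, n = 3), a ratio of 2.03, and all 8 that could be tested were called higher. RPL29A on A01 (BnaA01G0389200ZS) rose by log2 6.58 ± 0.07 (SE, edgeR adjusted p = 1.45e-117), while the 6 genes for protein L29 rose 1.71-fold in sum. This gene starts at 34964662 of A01, just before a stretch in which most genes rose. RPL8C on C03 (BnaC03G0695600ZS) went the other way, with 3.27, 4.12 and 2.33 CPM in SX3, against 114, 116 and 112 CPM in ZS11 (log2 -5.16 ± 0.07, adjusted p = 5.69e-104), although the L8 genes in sum stood at 1661 ± 20.2 CPM in SX3 and 1112 ± 14.3 CPM in ZS11. RPS30A on A10 rose 7.08-fold, to 93.2 ± 2.67 CPM in SX3, against 13.2 ± 1.25 CPM in ZS11.

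Other lists of the translation machinery had smaller medians. Among translation initiation factors 108 of 158 genes were higher in SX3 and 30 lower (median 0.46), and among aminoacyl-tRNA ligases, which charge tRNAs, 80 of 151 were higher and 36 lower (median 0.24). TIF3D1, a subunit of the initiation factor that recruits messenger RNA, rose 2.79-fold on C09. SYNC1 on A03, the cytosolic asparagine-tRNA ligase, stood at 39.9, 37.8 and 39.3 CPM in SX3, against 6.55, 6.87 and 5.69 CPM in ZS11 (log2 2.61 ± 0.09, adjusted p = 1.24e-60). Plastid ribosomal proteins had 98 of 155 genes higher and 32 lower (median 0.32), and mitochondrial ones 44 of 70 higher and 20 lower (median 0.48). Among terms of the Gene Ontology with 20 to 500 tested genes, translation elongation factor activity (22 of 26 higher, 3 lower, median 0.45) and the nuclear pore (30 of 43 higher, 7 lower, median 0.39) were among the 10 with the highest medians.

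Pentatricopeptide repeat proteins, which bind and edit RNA in plastids and mitochondria, were more often higher than lower in SX3. Of 932 genes tested, 514 were called higher in SX3 and 138 lower (median 0.47). Those with the DYW deaminase domain, which carries out editing of C to U in organelle RNA, had 108 of 147 higher and 15 lower, with a median of 0.71. The members named as mitochondrial (153 of 270 higher, median 0.43) and as chloroplastic (66 of 127 higher, median 0.38) had similar medians. The list summed to 6373, 6339 and 6357 CPM in SX3, against 5081, 5044 and 5015 CPM in ZS11.

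**Figure D2:**
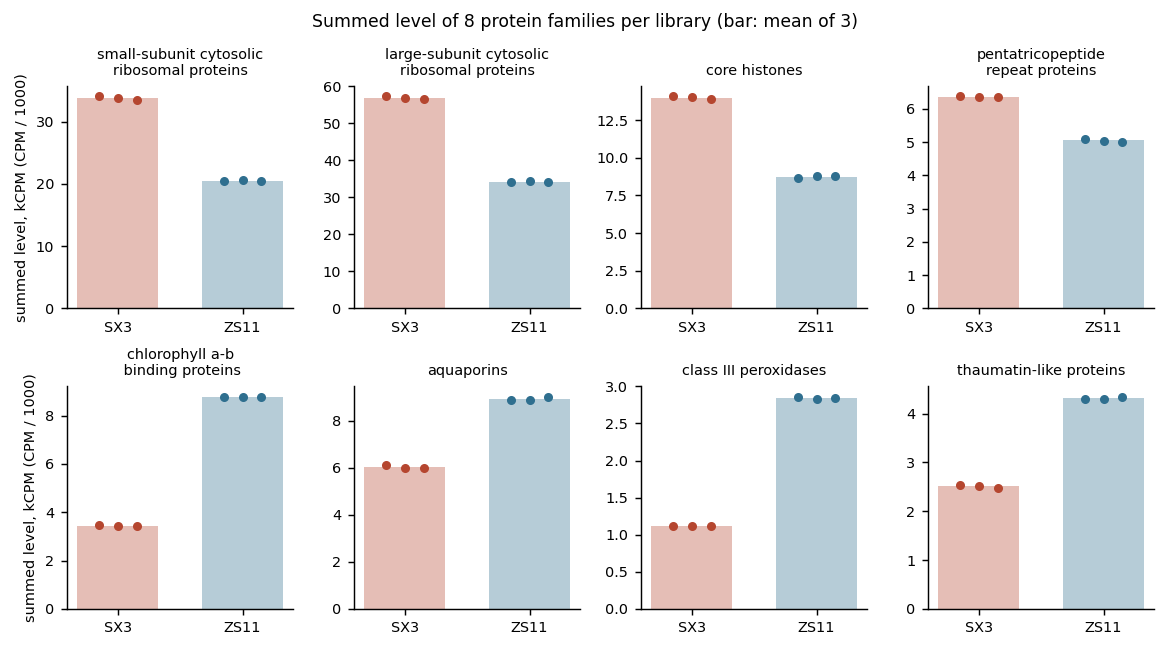
Summed level per library, in kCPM, of 8 protein families outside the 3 stretches; points are libraries and bars the mean of 3. In each of the 8 panels the SX3 and ZS11 points do not overlap: both ribosomal families, core histones and pentatricopeptide repeat proteins are higher in SX3, and light-harvesting proteins, aquaporins, peroxidases and thaumatin-like proteins lower.

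Core histones, the proteins around which DNA is wound, were mostly higher in SX3. Of 103 genes, 76 were called higher in SX3 and 17 lower (median 0.67), and of 19 protein names 16 were higher and 0 lower. All 4 kinds summed to more in SX3, with medians over genes of 0.57 for H2A, 0.70 for H2B, 0.37 for H3 and 0.82 for H4; differences between the kinds were not tested. H2A summed to 3984 ± 21.6 CPM in SX3 and 2474 ± 11.9 CPM in ZS11, H2B to 4139 ± 40.5 CPM in SX3 and 2437 ± 17.2 CPM in ZS11, H3 to 2168 ± 24.3 CPM in SX3 and 1461 ± 12.7 CPM in ZS11, and H4 to 3701 ± 43.7 CPM in SX3 and 2376 ± 24.8 CPM in ZS11 (SD, n = 3). Single copies were again less even than the sum. The H2B gene BnaA10G0161600ZS held 322, 307 and 315 CPM in SX3, against 4.96, 3.11 and 4.86 CPM in ZS11 (log2 6.18 ± 0.05, adjusted p = 1.13e-131), whereas the H2B gene BnaA06G0183600ZS fell to 6.99 ± 0.456 CPM in SX3, against 36.9 ± 2.56 CPM in ZS11.

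Other cell cycle groups had smaller medians. MCM helicases, which unwind DNA for replication, had 15 of 25 genes higher and 4 lower (median 0.39) and summed to 1150.4 ± 13.7 CPM in SX3 and 873 ± 14.7 CPM in ZS11. MCM7 shows how copies parted. Its copy on C03 rose by log2 1.24 ± 0.05 (adjusted p = 2.62e-55) and its copy on A03 fell by 2.56 ± 0.08 on the log2 scale (adjusted p = 7.2e-64). Tubulins had 30 of 51 genes higher (58.8%) and 17 lower. Their median, 0.17, was small but stayed between 0.14 and 0.23 under every alternative tried. Cyclins (49 of 119 higher, 32 lower, median 0.09) and kinesins (28 of 89 higher, 26 lower, median 0.02) stayed near the median of all genes. For kinesins the sign of the median differed under 6 of the alternatives tried.

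Most genes of the light-harvesting apparatus fell. Chlorophyll a-b binding proteins, the antenna of the photosystems, had 62 of 78 genes called lower in SX3 and 11 higher, with a median of -1.07, and photosystem subunits had 56 of 73 lower and 6 higher, with a median of -0.59. The antenna genes summed to 3466, 3449.9 and 3415 CPM in SX3, against 8757, 8778 and 8792 CPM in ZS11. CAB36 on A02 (BnaA02G0345900ZS) held 4.15, 3.41 and 2.73 CPM in SX3, against 238, 237 and 239.7 CPM in ZS11 (log2 -6.14 ± 0.06, adjusted p = 1.03e-125). PSAK on A08, a subunit of photosystem I, fell to 16.6 ± 0.466 CPM in SX3, against 83.8 ± 2.00 CPM in ZS11. ELIP1 on C01, an early light-induced relative of the antenna proteins that protects against excess light, rose 5.48-fold, with 62.9, 67.9 and 64.4 CPM in SX3, against 11.2, 13.1 and 11.4 CPM in ZS11. The energy chain of mitochondria did not share this direction: NADH dehydrogenase subunits had 29 of 95 genes higher and 29 lower, with a median of 0.01, a sign that turned under 4 alternatives.

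Marker levels of several cell types moved as well. Genes for epidermal regulators (ATML1 and PDF2) had 10 of 10 tested genes higher in SX3 and summed to between 220.5 and 230.1 CPM in SX3, against between 130.3 and 138 CPM in ZS11. The apical meristem list, with 7 of 17 genes higher and 8 lower, summed to between 564 and 574 CPM in SX3, against between 687 and 702 CPM in ZS11; all 7 of its markers were detected. Within it STM (145 ± 1.41 CPM in SX3, 264 ± 4.36 CPM in ZS11) and KNAT6 were at lower levels in every SX3 library, and KNAT1, ATH1 and WUS at higher ones. The list for green tissue (LHCB and RBCS genes; 10 of 32 higher, 19 lower) summed to between 2163 and 2206 CPM in SX3, against between 4668 and 4685 CPM in ZS11, and shares genes with the antenna list. Vascular markers summed to between 227 and 237 CPM in SX3, against between 267 and 279 CPM in ZS11, with 16 of 37 genes higher and 10 lower. The lower sum came from APL, at 148 ± 0.630 CPM in SX3 and 221 ± 6.45 CPM in ZS11. That name was the best match of 32 genes, 24 of them among the 37 tested (4 higher, 9 lower), so it may cover relatives of APL. In contrast, SUC2, ATHB8, IRX1, IRX3 and IRX5 were at higher levels in every SX3 library than in any ZS11 library. The stomatal list summed to between 157 and 168 CPM in SX3, against between 211 and 222 CPM in ZS11, with 7 of 14 genes higher and 2 lower. Most of that sum was the receptor gene TMM (TOO MANY MOUTHS), at 145 ± 6.13 CPM in SX3 and 207 ± 5.09 CPM in ZS11; SPCH, FAMA and EPF2 were at higher levels in every SX3 library. Trichome markers overlapped between the lines (17.8 to 18.96 CPM in SX3, 18.6 to 20.4 CPM in ZS11). Of the anther list, AMS was at 0 in all libraries, DYT1 and MYB35 stayed under 1.2 CPM and MYB80 and SPL/NZZ matched no gene by name. The list therefore rested on the receptor gene EMS1, at 114 ± 3.00 CPM in SX3 and 151 ± 1.55 CPM in ZS11. The carpel list lay between 55.9 and 61.3 CPM in SX3, against between 51.9 and 53.6 CPM in ZS11, with CRC at 23.2 ± 2.19 CPM in SX3 and 7.59 ± 0.744 CPM in ZS11 and STK the other way, at 0.313 ± 0.114 CPM in SX3 and 9.49 ± 0.191 CPM in ZS11. Root markers reached at most 0.923 CPM in SX3 and 0.0570 CPM in ZS11. The part of these shifts in the results on photosynthesis, walls and transport was not tested, and fewer cells of a type and less RNA per cell cannot be told apart in whole meristems.

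Most water channels fell. Of 72 aquaporins tested, 50 were called lower in SX3 and 13 higher, with a median of -0.59. TIP aquaporins of the vacuole membrane had 13 of 15 genes lower and summed to 3280 ± 65.6 CPM in SX3 and 5335 ± 84.4 CPM in ZS11. PIP1 aquaporins of the plasma membrane had 13 of 17 lower, and summed to 1494 ± 11.8 CPM in SX3 and 2234 ± 30.5 CPM in ZS11. PIP2 aquaporins were split, with 11 of 22 lower and 6 higher. TIP1-1 on A04 (BnaA04G0236300ZS) held 22.8, 20.9 and 18.9 CPM in SX3, against 974, 978 and 1002 CPM in ZS11 (log2 -5.57 ± 0.03, adjusted p = 1.25e-153). PIP1-3 on A09 went the other way and rose 9.64-fold. Sugar transporters had 45 of 95 lower and 26 higher (median -0.19). SWEET10 on C03, a sugar exporter that Arabidopsis induces at the transition to flowering, rose to 27.7 ± 0.542 CPM in SX3, against 6.56 ± 0.831 CPM in ZS11.

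Cell wall families differed in direction. Class III peroxidases, which cross-link wall polymers, had 28 of 48 genes lower in SX3 and 11 higher (median -0.55, -0.31 without a filter on low counts and -1.16 over members with a mean of 10 CPM or more) and summed to 1112, 1117 and 1115 CPM in SX3, against 2862, 2829.5 and 2839 CPM in ZS11. PER22 on C03 (BnaC03G0216600ZS) stood at 43.2, 45.5 and 41.3 CPM in SX3, against 786, 772 and 778 CPM in ZS11 (log2 -4.17 ± 0.03, adjusted p = 8.15e-144). Fasciclin-like arabinogalactan proteins, which sit at the cell surface, had 28 of 36 lower and 4 higher (median -0.46), and cellulose synthases 24 of 44 lower and 13 higher (median -0.35, and -0.15 without a filter on low counts). Catalytic subunits of cellulose synthase summed to 1676 ± 14.3 CPM in SX3 and 2195 ± 27.6 CPM in ZS11. CESA2 on A01 fell 7.71-fold.

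Expansins, which loosen walls, had 28 of 47 genes higher and 14 lower (median 0.43), but by protein name 7 of 15 were higher and 5 lower (median 0.05), and their sum lay at 1681 ± 9.49 CPM in SX3 and 1715 ± 8.80 CPM in ZS11. EXPA1 on C05 rose 5.64-fold and EXPA15 on A06 fell 10.6-fold, to 18.9 ± 0.329 CPM in SX3, against 200.1 ± 3.20 CPM in ZS11. Pectate lyases, which cut pectin, had 29 of 52 higher and 12 lower (median 0.47, by protein name 0.25, and 0.02 over members with a mean of 10 CPM or more). Of polygalacturonases 27 of 58 were lower and 13 higher, with a sum of 811 ± 14.4 CPM in SX3 and 1552 ± 12.2 CPM in ZS11. The sign of their median, -0.18, turned without a filter on low counts and by protein name.

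Cuticle and surface lipid genes went in both directions. Ketoacyl-CoA synthases, which lengthen fatty acids for wax, had 24 of 44 genes higher and 9 lower (median 0.45, by protein name 0.21) and summed to 614 ± 5.46 CPM in SX3 and 484 ± 7.16 CPM in ZS11. GDSL esterases had 58 of 122 higher and 31 lower (median 0.35, and 0.15 over members with a mean of 10 CPM or more), although their summed level was lower in SX3 (2721 ± 20.7 CPM, against 3949.5 ± 2.16 CPM in ZS11). Of these, the lipase named At5g33370 held 69.4, 74.0 and 73.3 CPM in SX3, against 0, 0.0701 and 0 CPM in ZS11. Its copies on C08 and A08 gave 52.1% and 47.9% of the counts, so both subgenomes moved. ESM1 on A05, an epithiospecifier modifier that directs glucosinolate breakdown in Arabidopsis, rose by log2 5.63 ± 0.10 (adjusted p = 1.34e-91). LTPG1, a lipid transfer protein of the cuticle, rose 2.11-fold on C03, and DIR1, a lipid transfer protein of systemic resistance, fell 50.2-fold on A05.

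Several lists of stress and defence proteins had more members lower than higher in SX3. Dehydrins and other LEA proteins, which accumulate in drying tissue, had 11 of 15 genes lower and 4 higher (median -0.97, by protein name -0.52) and summed to 506 ± 6.59 CPM in SX3 and 1282 ± 9.09 CPM in ZS11. Small heat shock proteins had 11 of 18 lower and 4 higher (median -0.77). Chitinases had 16 of 28 lower and 8 higher (median -0.60), and thaumatin-like proteins 21 of 37 lower and 7 higher (median -0.34, by protein name -0.52 and without a filter on low counts -0.02), with sums of 1345 ± 9.10 and 2510 ± 32.7 CPM in SX3, against 2167 ± 18.3 and 4318 ± 28.4 CPM in ZS11. The dehydrin ERD14 on A07 fell 7.12-fold. The pathogenesis-related protein R gene on C01 (BnaC01G0161700ZS) held 3.86, 4.47 and 5.70 CPM in SX3, against 95.3, 92.6 and 99.9 CPM in ZS11 (log2 -4.33 ± 0.07, adjusted p = 3.8e-96). The endochitinase CH25 gene on A03 rose 29.9-fold. Other defence lists did not all share this direction. WRKY factors had 28 of 94 genes higher and 26 lower (median -0.11, by protein name 0.01). Defensin-like proteins had 7 of 15 higher and 8 lower (median -0.14), and the sign turned under 5 alternatives. NB-ARC proteins had 17 of 45 lower and 7 higher (median -0.32, and 0.03 over 5 members with a mean of 10 CPM or more). HSP70 chaperones, with 16 of 41 genes higher and 14 lower (median 0.02), and DnaJ proteins, with 81 of 216 higher and 72 lower (median -0.01), did not lean either way; the sign of the DnaJ median turned under 3 alternatives, upper-quartile scaling among them.

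Thionin, a small antimicrobial peptide, was near 0 in SX3. Its gene THI2 on A03 (BnaA03G0264700ZS) was at 0 in all 3 SX3 libraries, against 124, 125 and 115 CPM in ZS11. By protein name THI2 fell by 7.63 ± 0.10 on the log2 scale (adjusted p = 3.35e-128). All thionins and thionin-like proteins, 24 genes, summed to 0.953 ± 0.0889 CPM in SX3 and 122 ± 5.48 CPM in ZS11. Only 1 of the 24 could be tested, and the A03 gene alone gave 121 ± 5.49 CPM of the ZS11 sum. The THI2 copy on C02 lay at 0.596 ± 0.214 CPM in SX3 and 0.209 ± 0.0186 CPM in ZS11.

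Families of detoxification and specialised metabolism had more genes lower than higher in SX3. Glutathione S-transferases, which conjugate toxic compounds, had 63 of 110 genes lower and 19 higher (median -0.46). The phi class had 18 of 27 genes lower and a sum of 2602 ± 10.5 CPM in SX3 and 4368 ± 79.1 CPM in ZS11, while the tau class summed to 2295 ± 2.65 CPM in SX3 and 2382 ± 19.5 CPM in ZS11. The difference between the classes was not tested. UDP-glycosyltransferases had 57 of 109 lower and 28 higher (median -0.33), and cytochromes P450 110 of 224 lower and 67 higher (median -0.26). CYP84A1 on A03, the ferulate hydroxylase of lignin and sinapate synthesis, fell 7.75-fold. CYP707A4 on A05, which breaks down abscisic acid, rose 4.58-fold. Inositol oxygenases, which open the ring of myo-inositol, had 5 of 5 tested genes higher and summed to 29.8 ± 0.928 CPM in SX3 and 1.56 ± 0.130 CPM in ZS11. MIOX4 gave most of this, with 22.3, 22.6 and 21.8 CPM in SX3, against 0.628, 0.631 and 0.460 CPM in ZS11 by protein name (log2 5.24 ± 0.18, adjusted p = 7.73e-67).

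Genes of autophagy, the recycling of cell contents through the vacuole, were mostly lower in SX3. The Gene Ontology term had 23 of 30 genes lower in SX3 and 2 higher (median -0.63). Among protein names that begin with "Autophagy-related", a group formed after the term had been seen, 16 of 22 were lower and 1 higher (median -0.56). ATG8F, a ubiquitin-like tag of autophagic membranes, stood at 52.9, 54.4 and 53.2 CPM in SX3, against 108, 104 and 107 CPM in ZS11 (log2 -0.99 ± 0.04, adjusted p = 3.49e-54). ATG11, a scaffold of the kinase that starts the process, fell to 22.0 ± 0.568 CPM in SX3, against 46.6 ± 1.27 CPM in ZS11.

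Genes of the circadian clock were among the most changed, in both directions. In Arabidopsis, the morning proteins LHY and CCA1 repress APRR1 (TOC1), and the pseudo-response regulators APRR9, APRR7 and APRR5 peak one after another between morning and evening. LHY, summed over 9 genes, held 6.08, 5.06 and 5.63 CPM in SX3, against 547, 549 and 543 CPM in ZS11 (log2 -6.61 ± 0.05, adjusted p = 2.42e-172), and CCA1 1.78, 1.90 and 2.72 CPM in SX3, against 131, 136 and 134 CPM in ZS11. APRR1 went the opposite way, with 168, 163 and 175 CPM in SX3, against 5.40, 5.75 and 5.14 CPM in ZS11 (log2 4.96 ± 0.06, adjusted p = 8.37e-132). Both of the most counted copies of each protein moved in step: LHY on A10 and C05, CCA1 on A05 and C04, and APRR1 on C07 and A03.

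A wider set of 12 clock proteins was formed after these values had been seen. In it 7 protein names were higher in SX3 and 4 lower. The morning-phased RVE8 (2.48 ± 0.945 CPM in SX3, 45.6 ± 1.98 CPM in ZS11) and APRR9 (11.9 ± 1.11 CPM in SX3, 60.9 ± 2.78 CPM in ZS11) were lower. The later APRR5 (48.9 ± 2.49 CPM in SX3, 5.26 ± 1.14 CPM in ZS11) was higher, as were GI, APRR3, PCL1, ELF3 and ADO2 by less than 2-fold. APRR7 did not pass the test (96.8 ± 1.96 CPM in SX3, 93.1 ± 3.63 CPM in ZS11, adjusted p = 0.137). Other regulators that respond to light or the clock in Arabidopsis lay far apart too: PIF5 on A09 was at 1.37 ± 0.387 CPM in SX3 and 24.8 ± 0.0941 CPM in ZS11, and BBX25 on C04 at 1.36 ± 0.443 CPM in SX3 and 39.5 ± 0.792 CPM in ZS11. The labels give no hour of sampling, so line and hour cannot be told apart for these genes. The same holds for the antenna genes, many of which follow the clock, and for every other gene compared here.

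**Figure D3:**
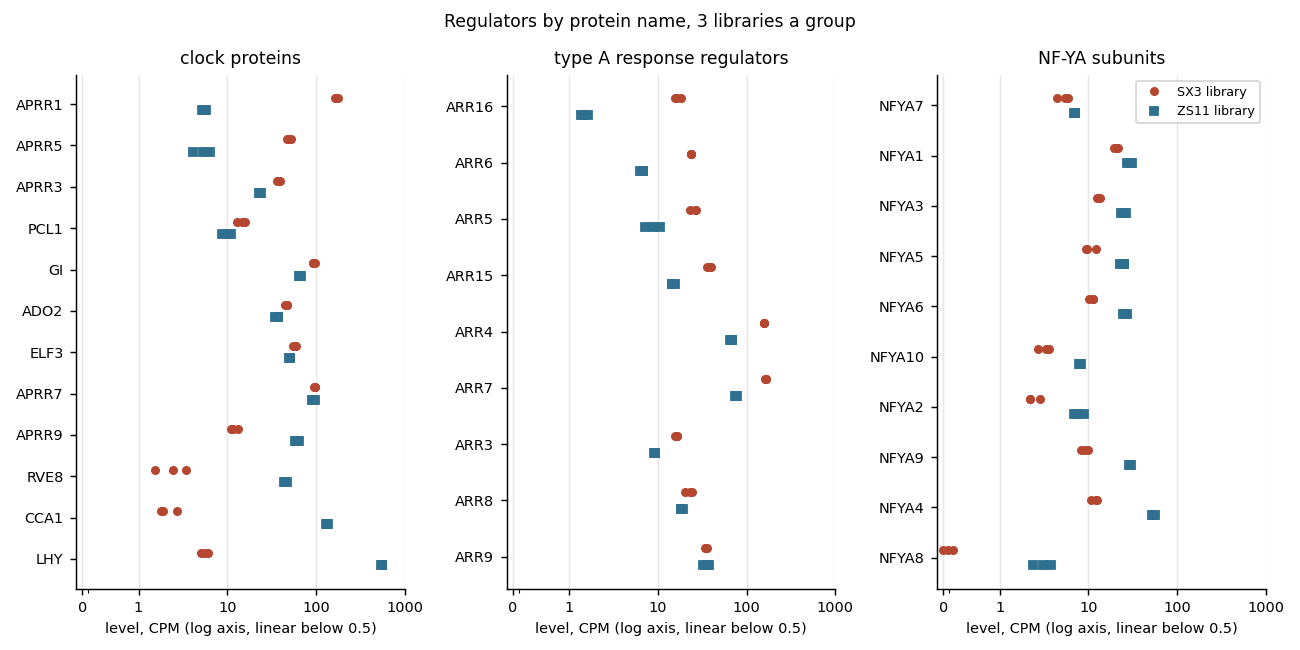
Level per library, in CPM on a log axis that is linear below 0.5, of clock proteins, type A response regulators and NF-YA subunits, each summed over the genes of a protein name; circles are SX3 and squares ZS11 libraries, 3 each. LHY, CCA1, RVE8 and APRR9 lie lower in SX3 and APRR1 and APRR5 higher, 8 of 9 type A regulators are higher, and all 10 NF-YA subunits are lower in SX3.

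Most type A response regulators, of the cytokinin pathway, rose. Cytokinin sustains division in the meristem; it acts through type B regulators, which are transcription factors, and quickly induces the type A regulators, which damp the signal. Over all response regulators, those of the clock included, 47 of 82 genes were higher in SX3 and 16 lower (median 0.48, and 0.23 over members with a mean of 10 CPM or more). The type A members had 23 of 32 higher and 2 lower (median 0.92), and type B 10 of 26 higher and 5 lower (median 0.11); this split was made after the list had been seen, and the difference between the types was not tested. ARR7 held 164, 159.9 and 164 CPM in SX3, against 77.8, 74.1 and 76.8 CPM in ZS11 (log2 1.09 ± 0.03, adjusted p = 4.08e-71). ARR16 held 18.1, 16.6 and 15.7 CPM in SX3, against 1.63, 1.47 and 1.38 CPM in ZS11 (log2 3.47 ± 0.16, adjusted p = 3.22e-50). Of the 9 type A protein names tested, all but ARR9 were higher; ARR9 lay at 34.8 ± 1.05 CPM in SX3 and 35.1 ± 2.58 CPM in ZS11 (adjusted p = 0.845). Of the 7 type B names tested, ARR1, ARR10, ARR11 and ARR18 were called higher, by log2 0.11 to 0.66, and ARR12 and ARR14 lower; ARR14 fell by 0.69 ± 0.04 on the log2 scale (adjusted p = 1.37e-40).

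NF-YA subunits, the DNA-binding part of the trimeric NF-Y transcription factor, had the lowest median of any protein domain with 20 or more tested genes. Of 29 genes with this domain as their whole domain entry, 25 were lower in SX3 and 1 higher (median -1.26), and all 10 protein names were lower. NFYA4 stood at 12.5, 10.6 and 12.2 CPM in SX3, against 56.4, 52.7 and 54.4 CPM in ZS11 (log2 -2.21 ± 0.07, adjusted p = 2.03e-68), and NFYA9 at 9.25, 9.81 and 8.22 CPM in SX3, against 29.8, 28.6 and 30.1 CPM in ZS11. The smallest change was that of NFYA7, at 5.26 ± 0.762 CPM in SX3 and 7.02 ± 0.155 CPM in ZS11. Sets of libraries did not overlap for any of the 10.

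Proteins with domain DUF640, the ALOG family that shapes meristem maturation and organ boundaries, were also lower, with 22 of 33 genes lower in SX3 and 5 higher (median -0.92). By protein name 6 of 8 were lower and 1 higher, with a median of -0.41. LSH10 held 92.9, 94.8 and 92.4 CPM in SX3, against 459, 466 and 471 CPM in ZS11 (log2 -2.32 ± 0.03, adjusted p = 1.14e-135). LSH4, known from organ boundaries, lay at 64.6 ± 0.768 CPM in SX3 and 131 ± 2.64 CPM in ZS11. LSH3 did not pass the test (57.8 ± 1.68 CPM in SX3, 58.2 ± 1.71 CPM in ZS11, adjusted p = 0.843), and LSH6 rose by log2 0.89 ± 0.21.

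MADS-box factors had the highest median among the families, 1.56, with 18 of 28 genes higher in SX3 and 6 lower. By protein name 14 of 24 were higher and 9 lower, with a median of 0.50, and over genes with a mean of 1 CPM or more it was 0.67. SEP1, a partner of the floral organ regulators, stood at 52.4, 55.4 and 57.1 CPM in SX3, against 1.38, 2.17 and 0.996 CPM in ZS11 by protein name (log2 5.16 ± 0.11, adjusted p = 1.46e-93). AGL8 on A03 was lower, at 19.3 ± 0.835 CPM in SX3 and 25.1 ± 1.42 CPM in ZS11. SBP-box factors, which include the age regulators of flowering, had 30 of 54 genes lower and 11 higher (median -0.31, and -0.55 over members with a mean of 10 CPM or more). SPL9 on A05 fell 2.07-fold. Several large families of transcription factors had medians between -0.08 and 0.11. These included MYB and MYB-like (132 of 426 higher, 152 lower) and bHLH factors (71 of 230 higher, 92 lower). For both, the sign turned with upper-quartile scaling. NAC (48 of 145 higher, 38 lower) and bZIP factors (47 of 175 higher, 67 lower) lay in this range too. So did homeobox factors, though more of them were called each way (88 of 195 higher, 45.1%, and 76 lower, 39.0%). AP2/ERF factors lay above the range, with 95 of 234 higher (40.6%), 62 lower (26.5%) and a median of 0.22. B3 factors had 62 of 134 higher and 31 lower (median 0.17, and -0.02 over members with a mean of 10 CPM or more). Their member VRN1, which in Arabidopsis keeps FLC silent after cold, rose 2.29-fold on A01.

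Cupin domain proteins followed MADS-box proteins as the domain with the next highest median, 1.03, with 17 of 25 genes higher and 5 lower. The protein names called germin-like, extracellular cupins, had 8 of 10 higher and 0 lower. GER3 held 90.2, 86.9 and 88.0 CPM in SX3, against 22.3, 21.7 and 20.3 CPM in ZS11 (log2 2.04 ± 0.05, adjusted p = 1.75e-80), and GLP1 17.04, 18.04 and 15.4 CPM in SX3, against 2.07, 1.96 and 2.15 CPM in ZS11. This group too was formed after the domain had been seen.

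Protein kinases had more genes lower than higher in SX3, with a share of lower genes near that of all genes, and other regulators were mixed. Protein kinases, the largest list, had 419 of 1076 genes lower (38.9%) and 259 higher (24.1%), with a median of -0.12. F-box proteins had 142 of 387 lower (36.7%) and 79 higher (20.4%), with a median of -0.12. Over all genes outside the stretches 35.1% were lower and 33.7% higher. Among subtilases, the serine proteases named in the title of the series, 24 of 50 genes were lower and 15 higher (median -0.20), but by protein name 6 of 12 were higher and 6 lower, and the median was 0.13. SBT3.3 on A03 (BnaA03G0461400ZS) held 13.03, 11.8 and 13.4 CPM in SX3, against 346, 345 and 353 CPM in ZS11 (log2 -4.77 ± 0.04, adjusted p = 4.16e-131). AIR3 on A09, the protease SBT5.3 linked to lateral root emergence in Arabidopsis, rose 1.73-fold. AUX/IAA proteins, repressors of the auxin response, were split, with 32 of 87 higher and 26 lower (median 0.06); IAA18 on A06 rose 27.4-fold, to 33.0 ± 1.60 CPM in SX3, against 1.22 ± 0.468 CPM in ZS11.

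Several protein names were near 0 in one line. SEC31A, a coat protein of vesicles that leave the endoplasmic reticulum, held 43.1, 49.0 and 48.9 CPM in SX3, while no ZS11 library had a count. Against a floor of 3 counts per library it was at least 224-fold higher in SX3. Copies on A08 and C08 both showed this. With SEC31B added, SEC31 genes summed to 405 ± 3.39 CPM in SX3 and 345 ± 4.16 CPM in ZS11. The glycine-rich RNA-binding protein GRP2A rose by log2 6.11 ± 0.05 (adjusted p = 7.72e-160), and all glycine-rich RNA-binding proteins summed to 3248 ± 97.1 CPM in SX3 and 1078 ± 19.7 CPM in ZS11. Initiation factor 5B, which joins the ribosomal subunits, was not detected in SX3 at a pair of neighbouring genes on C08 (BnaC08G0481000ZS from 50532952 and BnaC08G0481700ZS from 50551250). They had 0 counts in SX3, against 37.0 ± 0.761 and 39.1 ± 1.44 CPM in ZS11. All genes matched to this factor summed to 231 ± 5.39 CPM in SX3 and 226 ± 2.49 CPM in ZS11.

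Other genes had no count in SX3. BnaC07G0077600ZS, a BTB/POZ protein, was at 0 in all 3 SX3 libraries, against 26.7, 25.3 and 26.9 CPM in ZS11, at least 129-fold lower by protein name. A gene on A09 matched to the fission yeast ubiquitin ligase dbl4 (BnaA09G0015600ZS) was likewise at 0 in SX3, against 31.3, 27.3 and 29.1 CPM in ZS11. RPA2B, a subunit of the complex that coats single-stranded DNA, and an aminotransferase-like gene (At3g05190) were near 0 in SX3, with 1 count each over the 3 libraries, against 20.9 ± 0.686 and 30.4 ± 2.31 CPM in ZS11. Both lie at the far end of C01, described next. All genes for the replication protein A subunit summed to 104 ± 1.71 CPM in SX3 and 107 ± 0.0536 CPM in ZS11. The insulin-degrading enzyme gene on C02 (BnaC02G0492900ZS, from 59714230, outside the stretch on that chromosome) was at 0 in SX3, against 49.6, 53.0 and 43.7 CPM in ZS11.

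**Figure D4:**
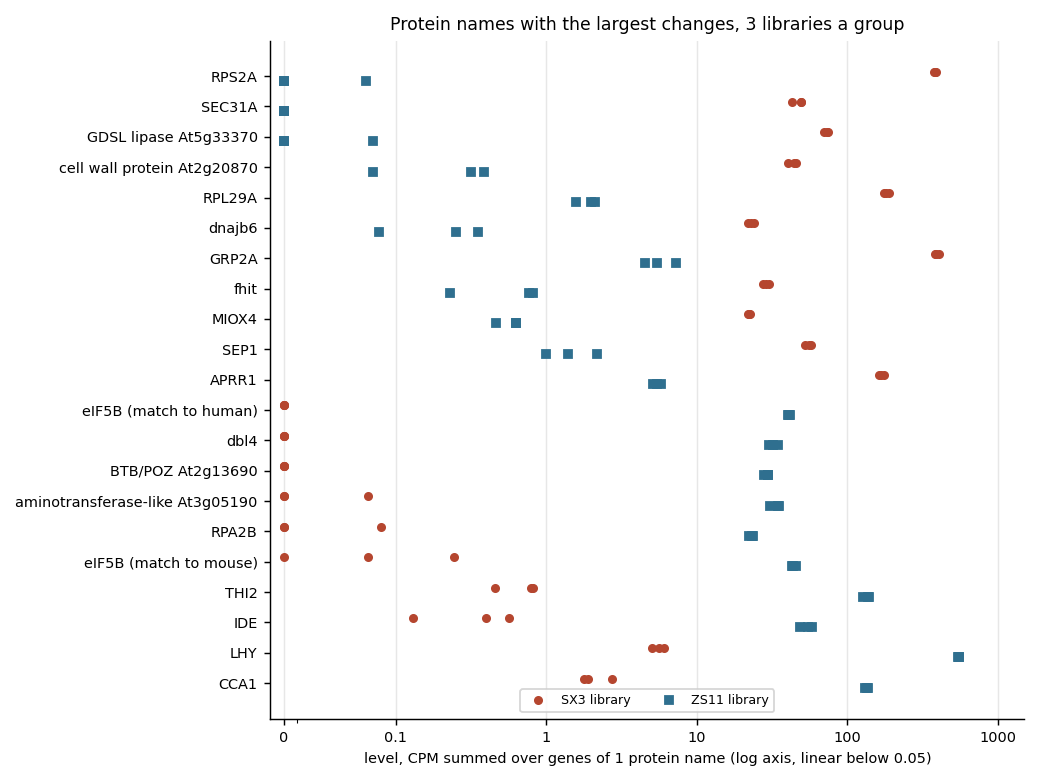
Level per library, in CPM summed over the genes of a protein name (log axis, linear below 0.05), of the protein names with a known role among the 12 largest changes in each direction; circles are SX3 and squares ZS11 libraries, 3 each. No circle and square of a protein name overlap, which was a condition of being chosen. RPS2A to APRR1 lie higher in SX3, and eIF5B to CCA1 lower.

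Such contrasts between copies occurred for other protein names too. Over all genes outside the stretches 33.7% were called higher and 35.1% lower, and 10.3% and 14.7% at least 2-fold. Sets of unrelated genes would therefore also often hold genes called in both directions, and copies were not compared with such sets. Of 10506 protein names with 2 or more genes tested outside the stretches, 3564 (33.9%) had copies called in both directions, and 802 (7.63%) had them at least 2-fold apart from ZS11 in both directions. For 714 of these 802 (89.0%) the sum over the name differed less than 2-fold. Over all protein names, 42.0% lay less than 2-fold below ZS11 and 42.8% less than 2-fold above it, so the 89.0% is not far from that of all names. Copies that move both ways also offset each other in a sum by construction. Every tested copy was called in the same direction in 2405 names (22.9%). The median absolute log2 change was 0.48 for genes outside the stretches and 0.37 for protein names. Of 12943 protein names 9875 were called (76.3%), and 1961 (15.2%) at least 2-fold, 7.15% higher in SX3 and 8% lower.

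In 3 chromosome stretches most genes differed, and by far more than elsewhere. On C02 from 0 to 9 Mb 598 of 633 genes tested were lower in SX3 and 14 higher (median log2 change -7.57), and 278 genes that reached 1 CPM in ZS11 had 0 counts in SX3. On C01 from 46 to 48 Mb 85 of 86 were lower and 0 higher (median -7.20). On A01 from 35 to 38 Mb 162 of 198 were higher and 31 lower (median 6.16). Its last part, from 37 to 38 Mb, was split, with 32 of 63 higher and 28 lower (median 0.26). Over the whole A01 stretch, 55 genes that reached 1 CPM in SX3 had 0 counts in ZS11. A fitted change from 0 has no firm size; with such genes set to the bound that 3 counts per library allow, the medians were -4.85 on C02, -4.93 on C01 and 4.83 on A01. Summed levels were 1558 ± 17.5, 148 ± 6.41 and 4929.6 ± 17.1 CPM in SX3 for the C02, C01 and A01 stretches, against 14262 ± 45.6, 2028 ± 12.7 and 1426 ± 13.5 CPM in ZS11. The genes concerned are of unrelated kinds. The methionine synthase MS1 on C02 held 0.381 ± 0.116 CPM in SX3 and 575 ± 9.76 CPM in ZS11, the protease ASPG1 on C01 was at 0 in SX3, against 153 ± 5.54 CPM in ZS11, and the ribosomal protein RPS3A on A01 held 299.8 ± 3.21 CPM in SX3 and 4.45 ± 0.281 CPM in ZS11.

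**Figure D5:**
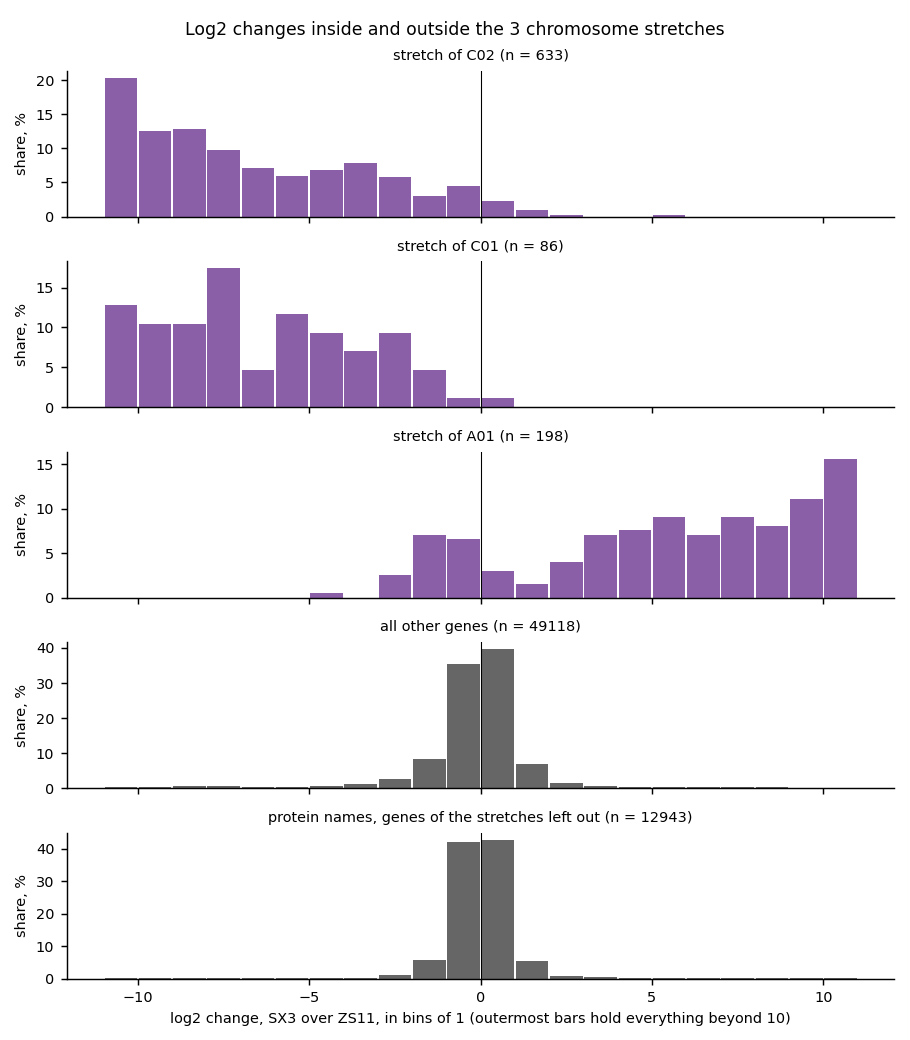
Share of genes, in percent, by log2 change of SX3 over ZS11 in bins of 1, for the 3 stretches, all other genes, and protein names without genes of the stretches. Genes of the C02 and C01 stretches spread far below 0 (medians -7.57 and -7.20) and those of the A01 stretch far above it (6.16), while all other genes centre on 0.

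The results above on families, protein names, domains and terms already left the 3 stretches out. The marker lists of cell types kept any genes of the stretches and were not recomputed without them. Totals over all genes changed little without the stretches. Outside them 33791 of 49118 genes were called (68.8%), 16557 higher in SX3 and 17234 lower, and 12292 differed at least 2-fold (25%), 10.3% higher and 14.7% lower. Family medians with the stretch genes put back stayed close: 0.76 and 0.82 for the ribosomal subunits, 0.66 for core histones, -1.07 for antenna proteins and -0.59 for aquaporins. The actins had a median of 0.06 without the stretches and of -0.05 with them. The borders were not sharp. On C01 between 45 and 46 Mb 36 of 38 genes were lower (median -4.46), and on A01 between 34 and 35 Mb 32 of 52 were higher (median 1.92). From 54 Mb to the end of C01, 182 of 235 genes were lower and 24 higher (median -1.18), which includes RPA2B, At3g05190, RPS16C, IAA16, HAT5 and GATA15.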

How the data were processed

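RNA from apical meristems was sequenced. The authors deposited a whole-number read count per gene and library, without normalization, per the file headers; per the submitters' processing notes, reads passed through fastp, HISAT2 and featureCounts, and neither their settings nor a genome build appears in the sources used here. Of 100919 genes, 69773 have a protein match. The 12 FPKM columns of the same table, and the lists of changed genes deposited beside it, were not used here.

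Counts were fitted with edgeR 4.0.16 in R 4.3.3 (filterByExpr, TMM, quasi-likelihood test, two-sided, Benjamini-Hochberg over all features kept), per gene and per protein name without the genes of the stretches. Levels are TMM-scaled CPM; standard errors come from the fold change and its statistic. The total count per library sets a floor of 3 counts, 0.169 to 0.220 CPM, for counting error only. Library pairs of a line differed by more than sampling noise (mean chi-square per gene 1.35 to 1.41) and were kept as replicates. The scripts were tested on simulated data. DESeq2 1.42.0 was an alternative.

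Named were the 12 protein names with the largest fold each way (20 CPM or more in the higher line, no overlap), their 2 most counted copies, and per family the called member with the largest fold each way; members of unknown role were left out and the rest shortened. The 73 lists and the members were chosen with earlier results of these data known. Genes were assigned to a domain or Gene Ontology term by their whole entry in the deposited table. Entries were not split, so any gene that lists a domain or term beside others is not counted under it. Gene lists carry no set test.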

Additional observations from a re-analysis of the deposited data

How the results depend on the processing

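Counts over all genes and over all protein names stayed within 1.5 times their main values under the alternatives tried. The 34681 genes called became 35001 with upper-quartile scaling, 34681 with RLE scaling, 30537 with DESeq2, 37647 of 70111 without a filter on low counts, 32624 at a mean of 1 CPM or more, and 33716 when refitted without the stretches. Leaving out each library in turn gave 33293 to 33907 genes called; protein names called then numbered 9505 to 9688, against 9875. No batch is given, and same-numbered libraries did not deviate together (correlations of 0.0066, 0.0040 and -0.0003), so they share only a number; with a replicate block 34412 genes and 9837 protein names were called. Leaving out wider stretches, chosen after seeing the data, left 33502 genes called, and genes called at least 2-fold numbered 12080.

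None of the 159 named genes and protein names changed direction, and 2 of them, STOP1 on C06 and At5g66910 on C07, lost their call under some alternatives. Of 31 families with an absolute median of 0.3 or more, 29 kept its sign under every alternative. The exceptions were laccases (0.96; -0.24 without a filter, and -1.13 for the 1 member with a mean of 10 CPM or more) and NB-ARC proteins (-0.32; 0.03 among 5 such members); the cause was not tested. The median of 14 of the 31 moved by over 1.5 times, 9 of them only by protein name or among members of 10 CPM or more. Member counts moved as far in 8 lists even without those subsets, as for laccases called lower (3; 10 without a filter on low counts). Low depth limits genes under the floor, and copies of a name share reads to an unknown extent.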

Other observations

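Some named domains and terms belong to none of the families above. Wound-induced proteins had 19 of 24 genes lower in SX3 and 2 higher, with a median log2 change of -0.93 and sums of 129 ± 3.48 CPM in SX3 and 252 ± 1.07 CPM in ZS11. Acyl-CoA binding proteins, carriers of activated fatty acids, had 14 of 22 lower and 4 higher (median -0.57). The Gene Ontology term for manganese ion binding had the highest median of all terms with 20 to 500 tested genes, 1.26, with 16 of 20 genes higher and 1 lower; it shares members with the germin-like proteins. The term for response to stress had 37 of 56 genes lower and 8 higher (median -0.50). Flavin-binding monooxygenases had 15 of 27 genes higher and 8 lower (median 0.66), yet summed to 90.6 ± 2.63 CPM in SX3 and 107 ± 0.707 CPM in ZS11 (SD, n = 3).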
